A study of Mus musculus with 12 samples.

Results

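The genes described here encode the cytokines interleukin 15 and interleukin 7 and receptor chains that work with them or with the common gamma chain. Il13ra1 is included as a partner chain of Il4ra. The 8 listed genes were Il15, Il15ra, Il2rg, Il4ra, Il13ra1, Il7r, Il21r and Il7. They were looked up by symbol or alias in the platform annotation of an Affymetrix mouse array, and 7 of the 8 were found among 18193 genes tested. Il2rg, the common gamma chain itself, is not analysed here. A probe set is the group of short probes on the array that reads 1 transcript. Each gene was represented by its brightest probe set that carries 1 symbol, and the other probe sets served as a check.

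The study asked how macrophages answer lipopolysaccharide (LPS), a surface molecule of Gram-negative bacteria, when they have met it before. The cells were differentiated in M-CSF, the growth factor of macrophages, out of C57Bl/6 bone marrow. Restimulated cells received 100 ng/ml LPS for 18 h, new medium and 2 h of rest, and then 100 ng/ml LPS again. Pretreated cells had the first LPS and the rest only, LPS once cells had only the last LPS, and untreated cells had neither. There were 4 groups on 12 arrays, with biological replicates A, B and C in each. All cells were M-CSF cultures of the same strain, with no genetic change named in the labels, and the sources used here do not say how long the last stimulation was.

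Interleukin 15 is made by macrophages and dendritic cells and is carried to the cell surface by its own receptor alpha chain, Il15ra, which presents it to T cells and natural killer cells. The common gamma chain is shared by the receptors for several lymphocyte cytokines, and each adds a chain of its own, such as Il4ra, Il7r or Il21r. Il4ra can also pair with Il13ra1, which makes macrophages sensitive to interleukin 13 as well as interleukin 4. These receptors have no enzyme activity and signal through Janus kinases and STAT transcription factors.

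The promoter windows of 3 of the receptor genes are shown because these genes had the largest called changes among the receptors. Each window covers 250 bases before to 50 bases after an annotated transcription start, from the RefSeq promoter table of build GRCm38.p6, given 5′ to 3′ on the gene's strand. The table held windows for 6 of the 8 genes, with 2 for Il15ra. Capitals mark matches to the motifs searched on both strands, which were GAAANNGAA (interferon regulatory factor type), TTCNNNGAA (STAT type), GGANTTNCC (NF-kappaB type) and TGANTCA (AP-1 type).
Il15ra, window 1, chr2:11705043-11705342, plus strand: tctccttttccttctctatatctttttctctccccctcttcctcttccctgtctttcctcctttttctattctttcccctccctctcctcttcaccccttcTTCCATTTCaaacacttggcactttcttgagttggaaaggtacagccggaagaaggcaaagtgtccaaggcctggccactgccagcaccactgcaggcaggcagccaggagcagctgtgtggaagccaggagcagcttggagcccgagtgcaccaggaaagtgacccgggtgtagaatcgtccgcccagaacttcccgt
Il15ra, window 2, chr2:11705462-11705761, plus strand: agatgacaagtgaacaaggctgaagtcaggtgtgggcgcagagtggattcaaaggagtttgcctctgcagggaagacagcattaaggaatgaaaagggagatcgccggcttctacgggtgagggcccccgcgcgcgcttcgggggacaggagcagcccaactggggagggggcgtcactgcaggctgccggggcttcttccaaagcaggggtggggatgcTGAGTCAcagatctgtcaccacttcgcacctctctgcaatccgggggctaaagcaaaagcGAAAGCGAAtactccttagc
Il4ra, chr7:125552021-125552320, plus strand: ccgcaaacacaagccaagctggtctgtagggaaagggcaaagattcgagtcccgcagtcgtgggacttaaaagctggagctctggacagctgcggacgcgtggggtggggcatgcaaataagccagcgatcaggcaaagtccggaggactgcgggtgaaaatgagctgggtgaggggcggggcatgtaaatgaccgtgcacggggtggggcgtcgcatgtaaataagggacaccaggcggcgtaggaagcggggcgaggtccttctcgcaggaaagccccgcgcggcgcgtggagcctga
Il7r, chr15:9529827-9530126, minus strand: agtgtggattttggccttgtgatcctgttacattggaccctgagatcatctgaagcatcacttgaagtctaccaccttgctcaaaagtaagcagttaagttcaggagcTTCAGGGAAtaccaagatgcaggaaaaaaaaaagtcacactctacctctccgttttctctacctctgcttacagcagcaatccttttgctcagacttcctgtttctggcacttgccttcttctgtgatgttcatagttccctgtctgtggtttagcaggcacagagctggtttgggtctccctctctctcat
Both Il15ra windows held the interferon regulatory factor type motif, as TTCCATTTC (the motif on the other strand) at bases -149 to -141 of the first and as GAAAGCGAA at bases 31 to 39 of the second, counted from the annotated start. The second also held the AP-1 type motif TGAGTCA at bases -30 to -24. The Il7r window held 1 STAT type match, TTCAGGGAA, at bases -142 to -134. No match lay in the window of Il4ra, nor in those of Il13ra1 and Il2rg, while Il21r had 1 NF-kappaB type match. Among all 32851 windows of the table, 8.56% held the interferon regulatory factor type motif, 8.3% the STAT type, 3.95% the NF-kappaB type and 7.81% the AP-1 type. These matches describe letters only, and the arrays did not measure binding.

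Markers were counted where the mean of at least 1 group was above 100 intensity units, which held for all 8 macrophage markers. Among these, Mertk, an engulfment receptor, averaged 431 units in restimulated, 1598 in pretreated and 137 in LPS once cells, and 1669 in untreated cells. The summed macrophage markers were 56578 to 65194 units in restimulated and 61546 to 63640 in pretreated cells. They were 55480 to 57140 units in LPS once cells and 58544 to 59684 in untreated cells. Of the markers of other cells, 1 of 7 measured was counted for T cells (Cd4, at group means of 86.7 to 109 units), 0 of 5 for natural killer and innate lymphoid cells, 1 of 7 for B cells (Blnk, which macrophages also express), 0 of 5 for dendritic cells, 3 of 5 for neutrophils and 4 of 6 for stromal cells. The restimulated replicate C array stood apart, with a mean intensity of 246.7 and a 75th percentile of 119.9, against 310.04 to 317 and 156 to 207 on the other 11 arrays. It held the lowest restimulated value of 6 of the 7 measured genes, so values without it stand beside the results that it moved most. Without this array the number of called genes was the same in 6 of the 7 comparisons, and in pretreated against LPS once cells Il21r was added. Summed stromal markers split the arrays by replicate letter, at 173 to 213 units on the 4 arrays of replicate C and 1096 to 3969 units on the other 8. Summed neutrophil markers were 2243 to 3949.5 units in restimulated, 2375 to 4117 in pretreated and 1524 to 3776 in LPS once cells, and 402 to 2565 in untreated cells. Of the 3 counted, S100a8 averaged 2853 units in restimulated, 3104 in pretreated, 2001 in LPS once and 939 in untreated cells. In the same order, Camp averaged 169, 96.8, 132 and 60.7 units and Ngp 83.0, 76.7, 449 and 353 units. Mpo and Elane, not counted, had group means of 19.1 to 28.4 units. Summed dendritic markers, none of them counted, were 179.9 to 276 units in restimulated, 177 to 191 in pretreated and 188 to 211 in LPS once cells, and 146 to 162 in untreated cells. The part of these markers in the results below was not tested.

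**Figure D1:**
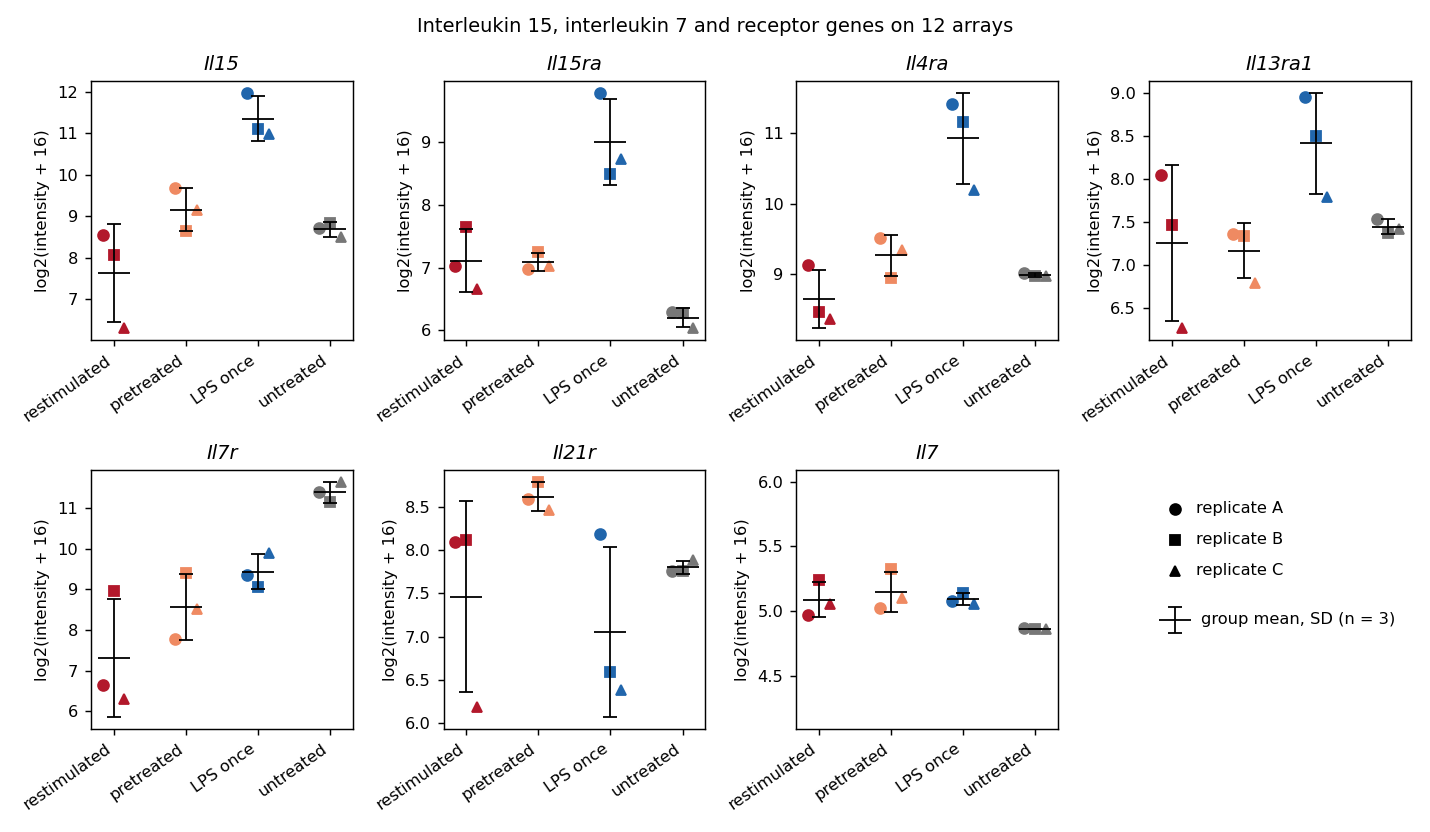
Log2(intensity + 16) of the 7 measured genes in restimulated, pretreated, LPS once and untreated cells, with 1 symbol per array and bars for the group mean and SD (n = 3). Il15, Il15ra and Il4ra were highest in all 3 LPS once arrays, and Il7r was highest in all 3 untreated arrays.

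LPS once cells were first set against untreated cells, which shows the answer to LPS without earlier contact. Interleukin 15 and its presenting chain rose together with Il4ra, and Il7r fell. Differences are given as log2 changes from a limma fit over all genes, and a call needed a change of at least 2-fold with a p, adjusted by Benjamini-Hochberg over all genes, under 0.05. By this rule 3 of the 7 genes were higher and 1 was lower, while 3.90% of all 18193 genes were called higher and 9.10% lower. In RNA of whole cultures, fewer cells of a type and less RNA per cell cannot be told apart.

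Il15 had intensities of 4034, 2197 and 2018 units in replicates A, B and C of LPS once cells, against 404, 443 and 343 units in untreated cells. Every LPS once array lay above every untreated array, by a wide gap. The change was 2.68 ± 0.53 on the log2 scale (SE, n = 3 per group, limma adjusted p = 0.00356), which is 6.41-fold. Il15ra, which carries interleukin 15 to the cell surface, had 866, 343 and 409.9 units in LPS once cells, against 62.8, 61.7 and 49.4 units in untreated cells. These groups did not overlap either, and replicate A was the highest LPS once array for both the cytokine and its receptor. The log2 change of Il15ra was 2.80 ± 0.33 (SE, adjusted p = 0.000195), or 6.96-fold, and its second probe set gave 2.18 ± 0.24 when every probe set was fitted as its own row.

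Il4ra, the chain that binds interleukin 4, had 2719, 2279.9 and 1152 units in LPS once cells, against 502, 484 and 485 units in untreated cells. The untreated arrays were close to each other and the LPS once arrays were spread, with replicate C the lowest, but the groups did not overlap. The log2 change was 1.94 ± 0.31 (SE, n = 3 per group, limma adjusted p = 0.0011). Il13ra1, the partner of Il4ra in the receptor for interleukin 13, had 479.8, 347 and 206 units in LPS once cells, against 170.2, 149.8 and 156 units in untreated cells. All 3 LPS once arrays were again above the untreated ones, but the log2 change of 0.97 ± 0.42 missed both limits (SE, adjusted p = 0.104). It was called under quantile normalization, at 1.19 ± 0.35 (adjusted p = 0.0269), and with its second probe set, at 1.28 ± 0.42 (adjusted p = 0.0473). Of the 5 probe sets of Il13ra1, fitted each as its own row, 4 had changes between 0.97 and 1.41, of which 2 were called. The remaining probe set averaged 16 units over the arrays.

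Il7r, the alpha chain shared by the receptors for interleukin 7 and for thymic stromal lymphopoietin, went the other way. Its intensities were 638, 512 and 934 units in LPS once cells, against 2651, 2231 and 3193 units in untreated cells. All LPS once arrays were below all untreated arrays, and the log2 change was -1.96 ± 0.64 (SE, n = 3 per group, limma adjusted p = 0.0403). This call is close to the threshold. It was lost with the second probe set (-1.85 ± 0.63, adjusted p = 0.0549), without any 1 of the 6 arrays compared (adjusted p between 0.0596 and 0.113) and without pretreated replicate C (adjusted p = 0.0578), with changes between -2.19 and -1.77 throughout.

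Il21r, the chain of the interleukin 21 receptor, had 274, 80.6 and 67.6 units in LPS once cells, against 199.97, 200.1 and 219.9 units in untreated cells. Replicate A lay above all untreated arrays and B and C lay below them, and the log2 change of -0.75 ± 0.55 did not pass the test (SE, adjusted p = 0.33). Il7, the interleukin 7 cytokine, was dim everywhere, at 13.1 to 24.0 units over the 12 arrays against array medians of 29.7 to 31.7 units, and its second probe set averaged 14.1 units. It was not called in any of the 7 comparisons, and at this brightness the array could not show a small change.

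**Figure D2:**
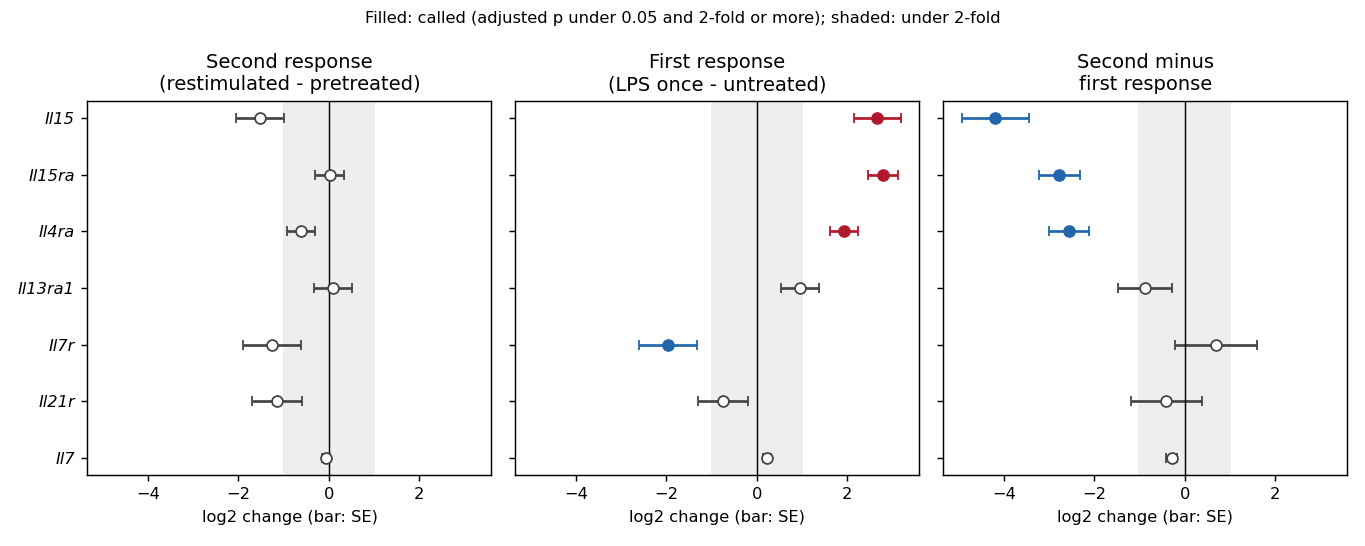
Log2 change and SE (n = 3 per group) of each measured gene in the second LPS response, in the first LPS response and in the difference between them, with filled symbols for called changes. Il15, Il15ra and Il4ra rose in the first response by 2.68, 2.80 and 1.94 and were called in the difference at -4.20, -2.78 and -2.56.

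What was left of the first LPS after rest was assessed by setting pretreated against untreated cells. None of the 7 genes was called by limma, with 3 at an unadjusted p under 0.05, and among all genes 0.291% were called higher and 0.308% lower. Il15 was at 799, 381 and 553 units in pretreated cells, against 404, 443 and 343 units in untreated cells. The groups overlapped, with a log2 change of 0.47 ± 0.53 (SE, adjusted p = 0.83). Il15ra was at 110.4, 136 and 114 units in pretreated cells, above all untreated arrays at 49.4 to 62.8 units, with a log2 change of 0.88 ± 0.33 (SE, adjusted p = 0.308). Il4ra was at 714, 475 and 635 units in pretreated cells, on both sides of the untreated range of 484 to 502 units.

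Il7r had the largest change of the 7 genes in this comparison. It had 204, 655 and 351 units in pretreated cells, against 2651, 2231 and 3193 units in untreated cells. The groups were far apart, but the pretreated arrays were spread among themselves and the log2 change of -2.82 ± 0.64 had a limma adjusted p of 0.0922. It was called with a filter on dim genes (adjusted p = 0.0397), in a fit of the 6 compared arrays only (adjusted p = 0.0394) and without restimulated replicate B (adjusted p = 0.0127), all at the same change. Il21r was the only measured gene with its highest mean in pretreated cells among those above the array median. Its values were 369, 426 and 337 units in pretreated cells, against 199.97, 200.1 and 219.9 units in untreated cells, with no overlap and a log2 change of 0.82 ± 0.55 (SE, adjusted p = 0.662).

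The second LPS response set restimulated against pretreated cells and asked whether LPS still moved these genes in cells that had met it. None of the 7 was called by limma, with 1 at an unadjusted p under 0.05, while 0.665% of all genes were called higher and 1.29% lower. Il15 had 355, 253 and 62.2 units in restimulated cells, against 799, 381 and 553 units in pretreated cells. All 3 restimulated arrays lay below the pretreated ones, with a log2 change of -1.52 ± 0.53 (SE, adjusted p = 0.142), and without restimulated replicate C it was -0.85 ± 0.35 (adjusted p = 0.302). Il15ra had 114, 184 and 84.5 units in restimulated cells, against 110.4, 136 and 114 units in pretreated cells. Its log2 change was 0.02 ± 0.33, and the restimulated arrays lay on both sides of the pretreated ones.

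Il4ra had 542, 336 and 312 units in restimulated cells, against 714, 475 and 635 units in pretreated cells, a log2 change of -0.62 ± 0.31 (SE, limma adjusted p = 0.301). Il13ra1 had 248, 160.4 and 61.0 units in restimulated cells, against 149, 145 and 95.3 units in pretreated cells, with a log2 change of 0.09 ± 0.42. The spread of Il13ra1 among restimulated arrays was wider than the difference between these groups, and without restimulated replicate C the change was 0.59 ± 0.32 (adjusted p = 0.474). Il7r had 84.1, 481 and 62.9 units in restimulated cells, against 204, 655 and 351 units in pretreated cells. Replicate B was the highest of its group in both, and the log2 change of -1.26 ± 0.64 (adjusted p = 0.312) became -2.09 ± 0.42 without restimulated replicate B, a called change (adjusted p = 0.0231), and -0.76 ± 0.66 without restimulated replicate C (adjusted p = 0.707). Il21r had 256, 261 and 56.8 units in restimulated cells, below all pretreated arrays, with a log2 change of -1.15 ± 0.55 (adjusted p = 0.285) that was -0.51 ± 0.44 without restimulated replicate C (adjusted p = 0.702).

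The interaction, the second log2 change minus the first, tested whether both responses were equal. Il15, Il15ra and Il4ra had called differences, all lower in the second response, so 3 of the 7 genes, against 1.44% of all genes called lower and 1.23% called higher. Il15 changed by -1.52 in the second response and by 2.68 in the first, a difference of -4.20 ± 0.74 (SE, limma adjusted p = 0.0183). The difference was -3.53 ± 0.48 without restimulated replicate C (adjusted p = 0.00486), and the call was lost without untreated replicate C (-4.10 ± 0.83, adjusted p = 0.0559). Il15ra had a difference of -2.78 ± 0.46 (adjusted p = 0.0141), and Il4ra one of -2.56 ± 0.44 (adjusted p = 0.0156). With the second probe set the Il4ra difference was -1.98 ± 0.61 and was not called (adjusted p = 0.151). Il13ra1 at -0.88 ± 0.59, Il7r at 0.70 ± 0.91 and Il21r at -0.41 ± 0.78 were not called. Without restimulated replicate C these differences were -0.38 ± 0.43, 1.20 ± 0.88 and 0.23 ± 0.59, so that of Il21r changed sign, and they were not called either.

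Restimulated and LPS once cells both received LPS in the last step, and the next comparison set their levels side by side. Il15, Il15ra and Il4ra were called lower in restimulated cells, which is 3 of 7, against 3.18% of all genes called lower and 2.48% called higher. Over all genes these were 578 lower and 451 higher, and without restimulated replicate C they were 434 lower and 733 higher, while the same number of the 7 genes was called lower. Il15 was at 355, 253 and 62.2 units in restimulated cells, against 4034, 2197 and 2018 units in LPS once cells. The highest restimulated array was far below the lowest LPS once array, and the log2 change was -3.73 ± 0.53 (SE, n = 3 per group, limma adjusted p = 0.00156), or 13.3-fold lower. Without restimulated replicate C it was -3.06 ± 0.35 (adjusted p = 0.00075).

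Il15ra differed by -1.90 ± 0.33 on the log2 scale (limma adjusted p = 0.00436), with 84.5 to 184 units in restimulated cells against 343 to 866 units in LPS once cells. A fit of the 6 compared arrays alone gave the same difference with an adjusted p of 0.0674. Il4ra differed by -2.28 ± 0.31 (adjusted p = 0.00129), with 312 to 542 units in restimulated cells against 1152 to 2719 units in LPS once cells. Neither gene's groups overlapped. Il13ra1 had 61.0 to 248 units in restimulated cells against 206 to 479.8 units in LPS once cells, which overlapped, and its log2 change of -1.16 ± 0.42 was not called (adjusted p = 0.101). With the replicate letter as a block it was called (-1.16 ± 0.27, adjusted p = 0.0225), and likewise under quantile normalization (adjusted p = 0.0441) and without restimulated replicate A (-1.55 ± 0.40, adjusted p = 0.0354). Without restimulated replicate C it was -0.66 ± 0.32 and not called (adjusted p = 0.207). Fitted each as its own row, the next Il13ra1 probe sets in brightness stood at -1.47 ± 0.42, -1.64 ± 0.37 and -1.79 ± 0.52. Their limma adjusted p were 0.0481, 0.0176 and 0.0515, so the last of these was not called. In that fit the brightest (adjusted p = 0.114) and the dimmest probe set were not called either.

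Il7r, already lower in LPS once than in untreated cells, had a log2 change of -2.13 ± 0.64 in restimulated relative to LPS once cells (limma adjusted p = 0.0537). It had 84.1, 481 and 62.9 units in restimulated cells, against 638, 512 and 934 units in LPS once cells, without overlap. The change was called with a pseudocount of 1 (adjusted p = 0.0418), under quantile normalization (adjusted p = 0.0425), with the filter on dim genes (adjusted p = 0.0242) and without restimulated replicate B (-2.96 ± 0.42, adjusted p = 0.00338). Without restimulated replicate C it was -1.63 ± 0.66 and not called (adjusted p = 0.128). Il21r had 256, 261 and 56.8 units in restimulated cells, against 274, 80.6 and 67.6 units in LPS once cells, which overlapped. Its log2 change was 0.41 ± 0.55 (adjusted p = 0.705), and 1.05 ± 0.44 without restimulated replicate C (adjusted p = 0.143).

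**Figure D3:**
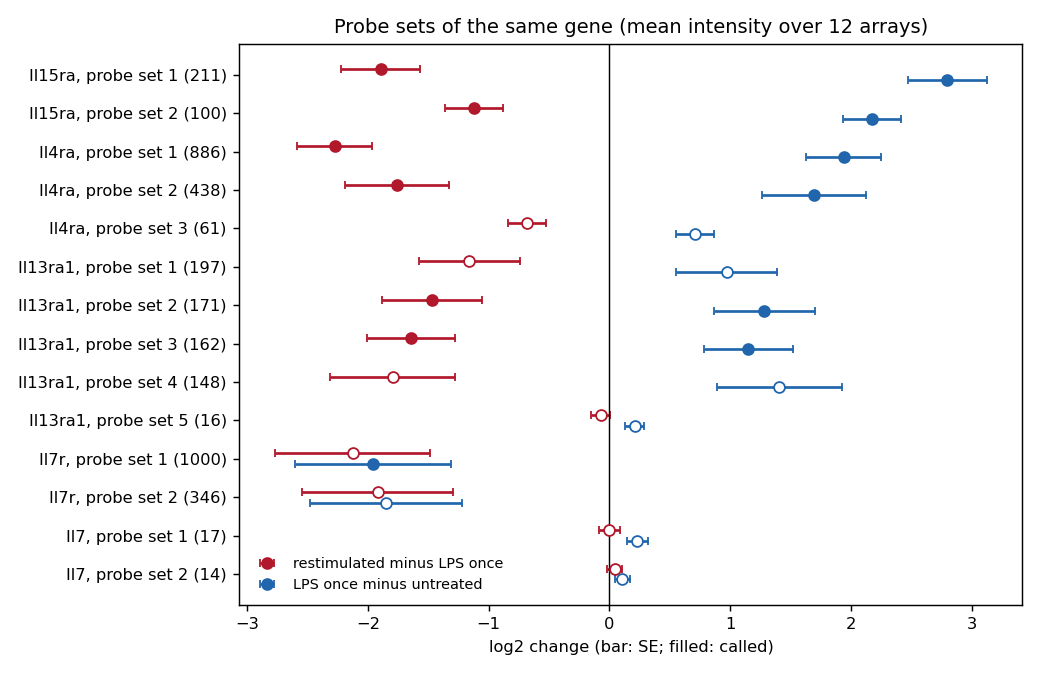
Log2 change and SE (n = 3 per group) of every single-symbol probe set of the genes with more than 1, for restimulated minus LPS once and for LPS once minus untreated, with the mean intensity over the 12 arrays in brackets and filled symbols for called changes. The 4 brighter Il13ra1 probe sets lie between 0.97 and 1.41 for LPS once minus untreated, and the probe sets of Il15ra, Il4ra and Il7r have the same sign as the brightest one in both comparisons.

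Cells that received LPS at both times were also set against cells that received none. Il7r was the only one of the 7 genes called, lower in restimulated cells, against 3.90% of all genes called lower and 1.36% called higher. It had 84.1, 481 and 62.9 units in restimulated cells, against 2651, 2231 and 3193 units in untreated cells, which is 17.0-fold lower (log2 change -4.09 ± 0.64, SE, limma adjusted p = 0.00412). The change ranged from -4.91 without restimulated replicate B to -3.59 without restimulated replicate C, and was called in both. Il15, by contrast with its level after a single LPS, had 355, 253 and 62.2 units in restimulated cells, against 404, 443 and 343 units in untreated cells. These overlapped, with a log2 change of -1.05 ± 0.53 (adjusted p = 0.189) that was -0.38 ± 0.35 without restimulated replicate C. Il15ra lay above all untreated arrays in restimulated cells, with a log2 change of 0.90 ± 0.33 that was not called (adjusted p = 0.0892) but was called under quantile normalization (1.08 ± 0.27, adjusted p = 0.0285) and with its second probe set (1.06 ± 0.24, adjusted p = 0.0239).

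Pretreated and LPS once cells had each received LPS in 1 step, the first step for pretreated cells and the last for LPS once cells. Il15, Il15ra, Il4ra and Il13ra1 were called lower in pretreated cells, 4 of 7, against 4.24% of all genes called lower and 8.87% called higher. The log2 changes were -2.21 ± 0.53 for Il15 (SE, limma adjusted p = 0.01), -1.92 ± 0.33 for Il15ra (adjusted p = 0.00159) and -1.66 ± 0.31 for Il4ra (adjusted p = 0.00261). For Il13ra1 the 149, 145 and 95.3 units in pretreated cells lay below the 479.8, 347 and 206 units in LPS once cells, at -1.25 ± 0.42 (adjusted p = 0.0489). That call was lost without any 1 of 9 arrays, namely all untreated and pretreated arrays, LPS once A and B, and restimulated B (adjusted p between 0.0614 and 0.159). With the replicate letter as a block the call was kept (-1.25 ± 0.27, adjusted p = 0.00863). Fitted each as its own row, the next probe sets in brightness were called lower, at -1.65 ± 0.42, -1.74 ± 0.37 and -1.75 ± 0.52. Their limma adjusted p were 0.016, 0.00635 and 0.0326, while the brightest (adjusted p = 0.0555) and the dimmest probe set were not called. Il21r had 369, 426 and 337 units in pretreated cells, against 274, 80.6 and 67.6 units in LPS once cells, so the groups did not overlap. Its log2 change of 1.56 ± 0.55 was not called (adjusted p = 0.0604), but with the replicate letter as a block it was (1.56 ± 0.48, adjusted p = 0.0381). It was also called with the filter on dim genes (adjusted p = 0.029), without LPS once replicate A (2.12 ± 0.49, adjusted p = 0.0114) and without restimulated replicate C (adjusted p = 0.0132).

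The orders of the group means differed between the genes. Il15 and Il4ra both ran from LPS once at the top through pretreated and untreated to restimulated, and only the step below LPS once was a called difference between neighbours. Il15ra had the order LPS once, restimulated, pretreated and untreated, again with 1 called step, below LPS once. For Il13ra1 the order was LPS once, untreated, restimulated and pretreated, with no called step between neighbours. Il7r ran downward from untreated through LPS once and pretreated to restimulated, and the step between LPS once and untreated was called. Il21r, with the order pretreated, untreated, restimulated and LPS once, had no called step. The places of restimulated cells for Il13ra1 and Il21r rest on replicate C, without which they lay above untreated cells, by 0.31 ± 0.32 for Il13ra1 and 0.30 ± 0.44 for Il21r, neither called.

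The genes most like each called gene over the 12 arrays were found by the root mean square difference between their log2 values after each gene's own mean was removed. For Il15 these were Sema4c at 0.52, Stat5a at 0.67 and Ddhd1 at 0.68 log2 units. Il15ra was closest to Ndufb1 and Tiparp, at 0.39 each, and Arid5a at 0.40. Il4ra was closest to Sipa1l1 at 0.30, Tpgs2 at 0.33 and Aff1 at 0.36, and Il13ra1 to Zc3h7a, Tlk2 and Tnip2, at 0.26 each. For Il7r the closest were Apbb2 at 0.71, Havcr2 at 0.73 and Syngr1 at 0.79. The measure is not scaled to a gene's range, so these distances do not rank the called genes by how closely others followed them.

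Among the ligands of the family that were not listed above, Il2, Il4, Il9, Il13, Il21 and Tslp, 1 of 6 was called in the first response, higher, beside 3.90% of all genes called higher and 9.10% lower. Tslp, the gene of thymic stromal lymphopoietin, a ligand that signals through Il7r, had 40.9, 72.0 and 81.7 units in LPS once cells, against 12.9, 13.5 and 12.6 units in untreated cells. The log2 change was 1.44 ± 0.16 (SE, limma adjusted p = 0.000157), and in restimulated cells Tslp was at 12.4 to 14.1 units, with a difference between the responses of -1.44 ± 0.23 (adjusted p = 0.0115). The median of this list was 0.15 in the first response, against 0.04 over all genes. With the filter on dim genes, the median over all genes kept was -0.22. The ligands other than Tslp were dim, with group means of 11.9 to 41.5 units against array medians of 29.7 to 31.7 units. At this brightness the median of the list could not show a small change. Of the 5 receptor chains Il2ra, Il2rb, Il9r, Il13ra2 and Crlf2, none was called by limma in any comparison, with 3 at an unadjusted p under 0.05 in the first response. These 3 were Il2ra, Il2rb and Il13ra2, with log2 changes of 0.14, 0.28 and 0.30. The share of all genes at that limit is not given here. Il2ra, Il9r and Il13ra2 were dim, with group means of 12.5 to 25.4 units, so a small change could not be shown. Crlf2, the chain that joins Il7r in the receptor for thymic stromal lymphopoietin, was bright at 2046 to 3365 units over the 12 arrays, and Il2rb, the chain that receives interleukin 15 on lymphocytes, lay between 22.8 and 38.7 units.

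Of 12 measured Janus kinases, STAT factors and adaptors, 3 were called higher and 2 lower in the first response, beside the same 3.90% and 9.10% of all genes. Their median log2 change was 0.25, against 0.04 over all genes. Stat5a, a transcription factor activated downstream of several common gamma chain receptors, had 2274, 2473 and 2314 units in LPS once cells, against 279, 322 and 317 units in untreated cells. In restimulated cells Stat5a was at 312, 321 and 219.7 units, against 322, 397 and 439.99 units in pretreated cells. The log2 change was 2.88 ± 0.15 in the first response (limma adjusted p = 3.91e-06), and the difference between the responses was -3.31 ± 0.21 (adjusted p = 6.6e-05). Jak2, a kinase used by many cytokine receptors, rose by 3.19 ± 0.30 in the first response and by 1.79 ± 0.30 in the second (adjusted p = 0.0137). Its difference between the responses, -1.40 ± 0.42, was not called (limma adjusted p = 0.111). Stat3, which is activated by interleukin 21 among others, rose by 1.13 ± 0.19 in the first response, with a difference between the responses of -1.24 ± 0.27 (adjusted p = 0.0371).

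The 2 genes that fell were chosen after their values were seen, and they were Stat6, the factor that carries the interleukin 4 signal, and the adaptor Gab2. Stat6 had 719, 954 and 849.6 units in LPS once cells, against 1753, 1931 and 1975 units in untreated cells, a log2 change of -1.16 ± 0.10 (SE, limma adjusted p = 4.4e-05). It thus fell in the same comparison in which Il4ra rose. In restimulated cells Stat6 was at 1562, 1554 and 1390.2 units, and the difference between the responses was 1.02 ± 0.14 (adjusted p = 0.00693). Irs2, an adaptor of the interleukin 4 and insulin receptors, had 44.0, 53.0 and 108 units in restimulated cells, against 92.5, 561 and 382 units in LPS once cells, which overlapped. It was called lower there (-1.87 ± 0.52, adjusted p = 0.0382).

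The 8 inhibitors of Janus kinase signalling included 3 called higher and 1 called lower in the first response, where 3.90% of all genes were higher and 9.10% lower. Their median log2 change was 0.60, against 0.04 over all genes. Socs3, a feedback inhibitor of cytokine receptors, had 9445, 10446 and 9394 units in LPS once cells, against 188, 210.1 and 139 units in untreated cells. It rose again in the second response, with 2477, 2486 and 2199.8 units in restimulated cells against 107, 389.7 and 144 units in pretreated cells, a log2 change of 3.58 ± 0.36 (limma adjusted p = 0.00247). Socs1, an inhibitor of interferon and interleukin 4 signalling, rose by 3.48 ± 0.39 in the first response and was lower in restimulated than in LPS once cells by -1.66 ± 0.39 (adjusted p = 0.0188). Cish, a STAT5 target that restrains cytokine receptors, had 60.7, 56.8 and 60.3 units in restimulated cells, against 277, 576 and 934 units in LPS once cells. Its difference between the responses was -2.90 ± 0.46 (adjusted p = 0.0106). Sh2b3, an adaptor that damps Jak2 signalling, fell by 1.11 on the log2 scale in the first response (SE 0.14, adjusted p = 0.000275).

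**Figure D4:**
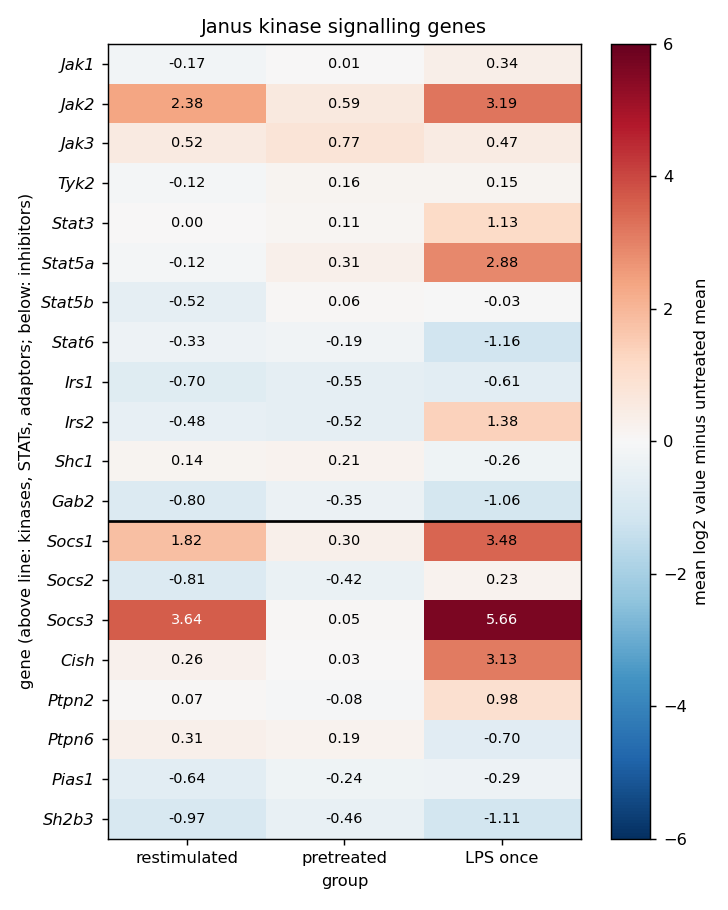
Mean log2(intensity + 16) of 12 kinases, STAT factors and adaptors and of 8 inhibitors in restimulated, pretreated and LPS once cells (n = 3 each), each minus the untreated mean, in colour and as numbers. Stat5a and Cish stand at 2.88 and 3.13 in LPS once cells and at -0.12 and 0.26 in restimulated cells, while Socs3 stands at 5.66 and 3.64.

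Genes that interleukin 4 can induce through Stat6 in mouse macrophages were counted next to the receptor. Whether Il4ra or Stat6 had a part in their changes here was not tested. In the first response 4 of 16 were called higher and 0 lower, beside 3.90% and 9.10% of all genes, and their median log2 change was 0.15, against 0.04 over all genes. Of the 4 called, 2 were the inhibitors Socs1 and Cish already described. Ccl22, a chemokine for T cells, had 584, 122 and 778 units in LPS once cells, against 35.3, 30.6 and 38.7 units in untreated cells (log2 change 2.99 ± 0.53, limma adjusted p = 0.00195). The remaining 1 was Ccl17, a related chemokine, at 1.07 ± 0.25 (adjusted p = 0.00914), named after its values were seen. Arg1, the arginine-degrading enzyme typical of interleukin 4 treated macrophages, had 209.8, 1076 and 94.2 units in restimulated cells, against 48.7, 16.6 and 12.4 units in LPS once cells. It was called higher in that comparison (2.94 ± 0.85, adjusted p = 0.0459) and in restimulated against untreated cells (3.25 ± 0.85, adjusted p = 0.0308), where the untreated arrays were at 13.2 to 20.1 units. Pretreated cells, without the second LPS, had 257, 1376 and 227 units of Arg1. Each restimulated array lay below the pretreated array of the same letter. In restimulated against LPS once cells 1 of the 16 was called higher and 3 lower, beside 2.48% and 3.18% of all genes. Against untreated cells 2 were called higher and 0 lower, beside 1.36% and 3.90%. The median log2 change of the list was -0.13 in the former and 0.14 in the latter. The arrays of replicate B held the highest Arg1 values of both groups that had been pretreated. Neither Mrc1 nor Retnla, a mannose receptor and a secreted protein of such macrophages, was called in the first response. Mrc1 averaged 1058 units in LPS once and 1381 in untreated cells. Retnla lay between 16.7 and 25.2 units over the 12 arrays. Some other genes of the list were as dim, so its medians could not show a small change.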

How the data were processed

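RNA of 12 macrophage cultures, 3 per group in 4 groups, was measured on Affymetrix arrays. RNA was extracted in TriFast and labelled by the array maker's procedure, per the labels' protocols. The authors deposited 1 intensity for each probe set on each array, on a scale that the values show to be linear. The sources used here name no program, background correction or scaling behind these intensities. The number of arrays limits the precision.

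Of 45101 probe sets, 34945 carried 1 gene symbol, 932 several and 9160 none. The RefSeq table of GRCm38.p6 updated the symbols by Entrez identifier. Intensities were transformed as log2(value + 16), which understates the change of dim genes, and were not normalized further. The probe set with the highest mean of these values stood for its gene, which gave 18193 genes. One limma fit (limma 3.58.1, R 4.3.3) of the 4 group means on all 12 arrays, tested on simulated data first, gave 7 contrasts, with 8 residual and 1.71 prior degrees of freedom. All adjusted p-values are limma's, by Benjamini-Hochberg over all genes. Comparisons that share a group are not independent of each other.

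Whether replicate letters pair the arrays was checked by correlating each array's deviation from its group mean with that of the others. The correlation was 0.25 to 0.656 in the 18 pairs of the same letter and -0.482 to 0.0134 in the 36 pairs of different letters, so the letters pair the arrays. The main fit did not use the letters. For the measured listed genes, values with the letter as a block stand where they change a call. For the genes of the pathway lists no values with the block are given.

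The listed genes, pathway lists and marker lists were chosen with earlier results of these data known. From each pathway list the text names up to 4 called genes with the largest changes or, where none was called, the 2 brightest, and for each called gene the 3 genes most like it. Stat6, Gab2, Ccl17, Mrc1 and Retnla were named outside this rule. Alternatives were pseudocounts of 1 and 64, quantile normalization, a filter on dim genes, the replicate letter as a block, the compared arrays only, the second probe set, each array left out and, added after seeing the data, every probe set as its own row. The filter kept genes whose highest group mean was at least 50 units, so a gene bright in only 1 group passed it.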

Additional observations from a re-analysis of the deposited data

Results flagged for a closer look

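Of the genes described, 3 had a second response to LPS that differed from the first by the test of the difference itself, in limma's interaction term. Il15 stood at -4.20 on the log2 scale (second minus first change), Il15ra at -2.78 and Il4ra at -2.56. All 3 rose in LPS once relative to untreated cells, and none was called higher in restimulated relative to pretreated cells.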

How the results depend on the processing

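Over the 7 genes and 7 comparisons, 903 values were computed under alternative settings. Of these, 843 kept their direction and their side of the threshold, 20 lost a call, 19 gained one, and 21 changed sign, none of them called with either sign. The sign changes over the arrays left out gave these ranges. In the second response they were -0.25 to 0.25 for Il15ra, -0.30 to 0.59 for Il13ra1 and -0.136 to 0.0271 for Il7. In the interaction they were -0.13 to 1.20 for Il7r and -0.74 to 0.23 for Il21r. In restimulated against untreated cells they were -0.58 to 0.31 for Il13ra1 and -0.66 to 0.30 for Il21r, and quantile normalization gave 0.025 for Il13ra1. Il7 ranged from -0.0791 to 0.0543 in restimulated against LPS once cells, with 0.011 under quantile normalization, and from -0.0304 to 0.119 in pretreated against LPS once cells. With the second probe set Il7 stood at 0.0717, 0.0423 and -0.0294 in the second response and in these 2 comparisons. The number of genes called in the pretreatment comparison was 0 and became 1, Il7r, with the filter on dim genes and in the compared arrays only. It ranged from 0 to 1 over the arrays left out, as did the number in the second response, where Il7r was called without restimulated replicate B. The 3 genes called in restimulated against LPS once cells became 5 under quantile normalization, which added Il13ra1 and Il7r. The 1 gene called in restimulated against untreated cells became 2 under quantile normalization and 2 with the second probe set, which added Il15ra in both cases. The cause of these changes was not tested. The replicate block, the letters A, B and C as a term in the fit, added the calls of Il13ra1 in restimulated against LPS once cells (-1.16, adjusted p = 0.0225) and of Il21r in pretreated against LPS once cells (1.56, adjusted p = 0.0381), and it changed no other call of the 7 genes. Over all genes, the number called in the pretreatment comparison was 109, against 197 with the replicate block, 70 with a pseudocount of 64, and 51 to 152 over the arrays left out, lowest without untreated replicate C. The second response had 355 called genes, against 1 in the compared arrays only, 226 with the second probe set, and 95 to 584 over the arrays left out, lowest without pretreated replicate C and highest without restimulated replicate B. The interaction had 485, against 273 with the second probe set and 198 to 735 over the arrays left out, lowest without untreated replicate C and highest without restimulated replicate C. Restimulated against LPS once cells had 1029, against 592 in the compared arrays only. Quantile normalization moved the share of higher genes among those called to 51.8%, against 34.1%, in the second response, and to 42.9%, against 25.9%, in restimulated against untreated cells. Il7 and the dimmest Il13ra1 probe set lay under the median intensity of the arrays, so a small change there could not be shown.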
